A study of Mus musculus with 6 samples.

Results

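The transcripts of the enzymes that write and erase DNA methylation were followed across 2 populations of mouse bone marrow stem and progenitor cells. The members are every probe set that the probe table assigns to Dnmt1, Dnmt3a, Dnmt3b, Tet1, Tet2 or Tet3 alone, 6 of 18193 named genes and 17 of the 45037 probe sets on the array that are no controls. Of these, 10 read the writers (3 for Dnmt1, 5 for Dnmt3a and 2 for Dnmt3b) and 7 read the erasers (4 for Tet1, 2 for Tet2 and 1 for Tet3). The cells came from 3 adult Mx1Cre;Ergkd/+;R26Y mice (278, 279 and 281) on a mixed 129-B6 background. All 6 samples therefore come from mice with the Mx1Cre transgene, an interferon-inducible Cre, and the heterozygous Erg knockdown allele. These mice also carry the Rosa26 reporter, which expresses yellow fluorescent protein (YFP) once Cre has acted. From each mouse, YFP- LSK cells, labelled Erg-knockdown with about 40% less Erg, and YFP+ LSK cells, labelled Erg-restored to the wild-type level, were sorted and put on 1 array each. LSK stands for marrow cells that lack lineage markers and carry Sca-1 and c-Kit, a gate that holds blood stem cells and early progenitors. Because YFP set the gate, Cre action, the reporter and the labelled dose of Erg cannot be told apart between the populations.

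DNMT1 copies methylation marks onto the new strand after DNA replication. DNMT3A and DNMT3B set marks on unmethylated DNA, and the TET dioxygenases TET1, TET2 and TET3 oxidize methylcytosine, a step towards its removal. DNMT1 is needed for blood stem cells to renew themselves. By contrast, mouse blood stem cells without DNMT3A or TET2 expand, and DNMT3A and TET2 are among the genes most often mutated in human clonal hematopoiesis.

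The labels were checked on Erg itself, an ETS family transcription factor. Its 2 probe sets averaged 2810 and 1573 in knockdown-labelled cells, against 2764 and 1696 in restored-labelled cells. The log2 differences were 0.024 and -0.11, in a paired limma fit to all 45037 probe sets rather than the filtered fit used for the members. Their 95% intervals ran from -0.30 to 0.34 and from -0.43 to 0.20, so the labelled reduction was not seen. The names knockdown-labelled and restored-labelled are used for that reason. Which part of the transcript these probe sets read was not analysed here. Of the 8 markers listed for the LSK gate, 6 had a probe set of their own, and all 6 were above the filter. Sca-1 (Ly6a) has no such probe set here. The summed intensity of the 6 lay between 28181 and 31243 in knockdown-labelled and between 25965 and 29704 in restored-labelled cells. Within each mouse the knockdown-labelled sum was the higher one: 31243 against 29704, 28181 against 25965 and 29082 against 27328 in mice 278, 279 and 281. Kit and Mecom, 2 of the 6, were higher without overlap and 0 were lower, against 9.6% and 4.36% of all probe sets tested. Cd34 and Flt3 were higher in every mouse with overlap, and Slamf1 and Cd48 in 1 mouse each. Mean intensity was between 1031 and 1071 on every array. The restored-labelled array of mouse 279 stood apart: it was the highest or the lowest of the 6 at 58.2% of all probe sets tested, against 20.4% to 35.0% for the other arrays, and its 3' over 5' log2 ratio for beta-actin was 0.74, against 0.49 to 0.59 on the others. Where a member's result rests on it, the value on the 5 remaining arrays, fitted with no mouse term, is given too.

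The promoters of the 3 erasers are shown because Tet1 and Tet2 varied together over the arrays while Tet3 did not, and because ERG belongs to a family whose members bind a GGAA core. Each line holds the 250 bases before an annotated start, from the RefSeq promoter table of build GRCm38.p6, read 5′ to 3′ on the strand of the gene, which is the minus strand for all 3. The windows are chr10:62887325-62887574 for Tet1, chr3:133544391-133544640 for Tet2 and chr6:83441679-83441928 for Tet3. Capitals mark GGAA or its reverse complement TTCC.
Tet1: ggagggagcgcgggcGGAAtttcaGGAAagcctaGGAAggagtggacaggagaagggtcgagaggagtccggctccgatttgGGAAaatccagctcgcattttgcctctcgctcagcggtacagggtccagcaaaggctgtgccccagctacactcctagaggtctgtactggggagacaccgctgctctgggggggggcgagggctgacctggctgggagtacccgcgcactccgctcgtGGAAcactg
Tet2: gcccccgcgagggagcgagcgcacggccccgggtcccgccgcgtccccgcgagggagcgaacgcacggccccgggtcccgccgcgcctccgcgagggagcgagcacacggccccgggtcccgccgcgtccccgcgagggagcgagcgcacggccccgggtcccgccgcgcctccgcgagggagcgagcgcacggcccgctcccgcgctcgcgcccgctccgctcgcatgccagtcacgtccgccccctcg
Tet3: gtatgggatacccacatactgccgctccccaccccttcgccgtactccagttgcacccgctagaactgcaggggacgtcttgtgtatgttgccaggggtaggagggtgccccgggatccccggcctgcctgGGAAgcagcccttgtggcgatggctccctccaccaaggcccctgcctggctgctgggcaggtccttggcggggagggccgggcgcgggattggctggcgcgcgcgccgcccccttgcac

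The Tet1 window holds 5 GGAA words on either strand, the Tet3 window 1 and the Tet2 window 0. At least 1 such word is found in 93.5% of the 32841 promoter windows of this length, with a median of 3, and 18.0% hold 5 or more. The longer ETS word CCGGAAGT, searched on both strands and overlapping the core, is in none of the 10 windows of the 6 member genes and in 2.88% of all windows. The Tet2 window is built of a repeated unit rich in CpG, the dinucleotide that the writers methylate: the word CCGCGAGGGAGCGA of 14 bases occurs in it 5 times. On either strand it is in 0.00304% of all windows, which is the Tet2 window alone. The search for a repeat was made after the sequence was seen. The Tet2 window holds 51 CpG, a count that 0.0670% of all windows reach, against 15 for Tet1 and 17 for Tet3, and the median window has 6. The 3 annotated starts of Dnmt1 also differ among themselves: the outermost window (chr9:20959889-20960138) has 2 CpG and 6 GGAA words, the next (chr9:20952980-20953229) 7 and 2, and the innermost (chr9:20952624-20952873) 26 and 1. Dnmt3a has 38 and 40 CpG before its 2 outer starts and 15 before its inner one, and Dnmt3b has 21. These are descriptions of the letters, and binding and methylation were not measured here.

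**Figure D1:**
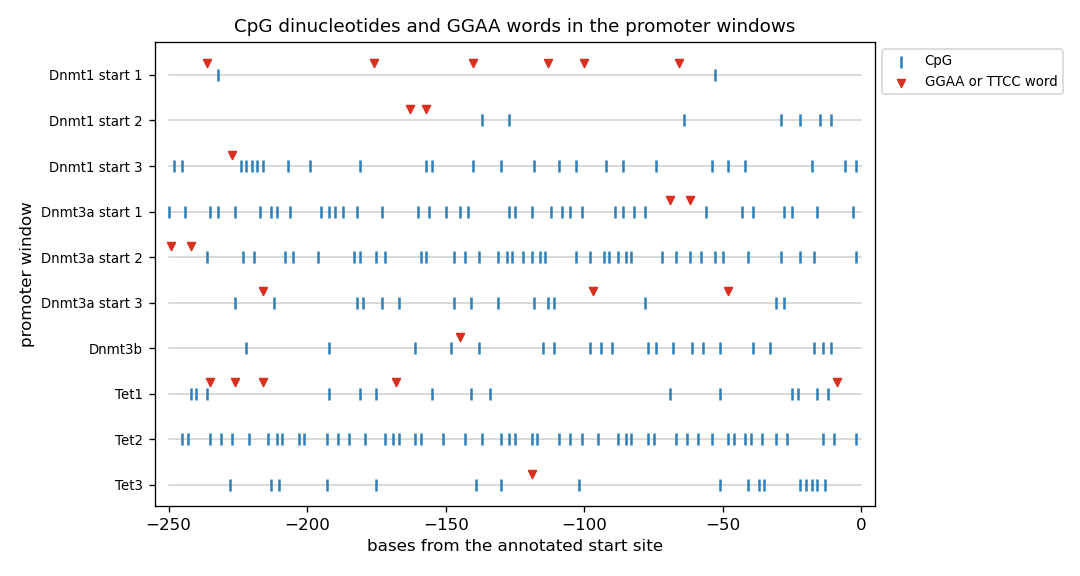
Positions of CpG dinucleotides (blue ticks) and of GGAA or TTCC words (red triangles) in the 10 promoter windows of the member genes, in bases from the annotated start; where a gene has several starts they are numbered along its direction of transcription. The Tet2 window has 51 CpG and no GGAA word, and the outermost Dnmt1 window has 2 CpG and 6 GGAA words.

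The comparison set the writers and erasers of both populations against each other within each mouse. A difference is the log2(intensity + 16) value of knockdown-labelled cells less that of restored-labelled cells, and its standard error (SE) comes from a paired limma fit to the 22519 probe sets whose average level reached that of the median probe set, an intensity of 143. All 17 members passed this filter. None of them passed an adjusted p of 0.05 (Benjamini-Hochberg in limma), and neither did any other probe set, 0% of 22519. At an unadjusted p below 0.05 there were 0 members in either direction, against 4.75% of all probe sets higher and 1.33% lower, 6.08% in all. The lowest adjusted p among the members was 0.799. Of the 17 differences 13 were positive and 4 negative, with a median of 0.096, and among all probe sets tested 54.8% were positive, with a median of 0.020. The groups did not overlap at 3 members, all higher in knockdown-labelled cells, where 9.6% of all probe sets were so, and 4.36% were lower without overlap. All 3 mice agreed on a higher value at 6 members, against 20.8% of all probe sets, and on a lower one at 1, against 10.4%. With each array centred on its median the number of positive differences was 8 of 17, and the median of all probe sets was -0.087.

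**Figure D2:**
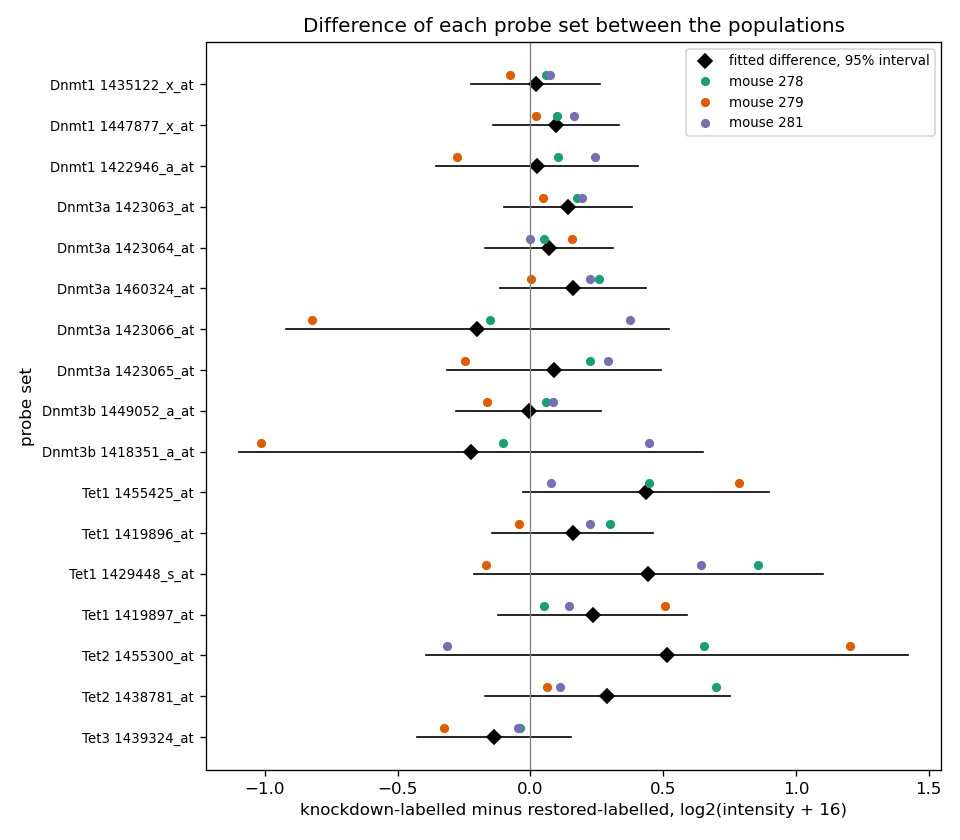
Difference of each member probe set, knockdown-labelled less restored-labelled, in log2(intensity + 16): fitted value with its 95% interval (black) and the 3 mice (coloured points). Every interval includes 0; Tet2 1455300_at lies furthest to the right with a fitted 0.51, followed by 2 Tet1 probe sets at 0.44, and the single mice are furthest apart at Tet2 1455300_at and Dnmt3b 1418351_a_at.

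Tet1 had the smallest unadjusted p of the members. Its brightest probe set, 1455425_at, read 2032, 1430 and 1507 in the knockdown-labelled cells of mice 278, 279 and 281, against 1488, 822 and 1428 in their restored-labelled cells. It was higher in every mouse, by 0.45, 0.79 and 0.076, but the groups overlapped, since the knockdown-labelled array of mouse 279 lay below the restored-labelled array of mouse 278. The fitted difference was 0.44 ± 0.17 (SE), or 1.35-fold, with a 95% interval from 0.981-fold to 1.87-fold (unadjusted p = 0.0591, adjusted p = 0.799 in limma). An exact permutation of signs over the mice, two-sided, gave p = 0.25, which is the smallest value that 3 mice allow. On the 5 remaining arrays the difference was 0.16, or 1.12-fold.

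The other Tet1 probe sets ranked the arrays differently. At 1429448_s_at the knockdown-labelled cells gave 294, 165 and 271, against 155, 187 and 168 in restored-labelled cells. Here mice 278 and 281 were higher by 0.86 and 0.64 and mouse 279 was lower, with a difference of -0.17. The fitted value was 0.44 ± 0.24 (SE), and it was 0.24 without mouse 278, 0.75 without mouse 279, 0.35 without mouse 281 and 0.51 on the 5 remaining arrays. The groups did not overlap at 1419897_at, with 213, 216 and 215 in knockdown-labelled cells against 205, 147 and 193 in restored-labelled cells, a difference of 0.23 ± 0.13 (SE). That separation was widest in mouse 279, at 0.51, and narrowest in mouse 278, at 0.050, and on the 5 remaining arrays the fitted value was 0.10. The remaining probe set, 1419896_at, averaged 575 ± 69.4 in knockdown-labelled and 510.3 ± 5.29 in restored-labelled cells (SD, n = 3 each), with a difference of 0.16. All 4 Tet1 probe sets thus gave a positive difference, but the mouse with the largest difference was 279 at 2 of them, and 278 at the other two, where mouse 279 had a negative one.

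Tet2, whose loss expands blood stem cells in mice, showed the widest spread between mice at its brightest probe set. 1455300_at read 2389, 1709 and 1486 in the knockdown-labelled cells of mice 278, 279 and 281, against 1513, 733 and 1853 in restored-labelled cells. Mice 278 and 279 were higher by 0.65 and 1.20 and mouse 281 was lower, with -0.32. The fitted difference of 0.51 ± 0.33 (SE), or 1.43-fold, had an interval from 0.761-fold to 2.68-fold (adjusted p = 0.800 in limma), the widest of the erasers on the log2 scale. The restored-labelled array of mouse 279 was 1.25 below the mean of the other 5 arrays on the log2 scale. On the 5 remaining arrays the difference was 0.12, or 1.09-fold.

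The second Tet2 probe set, 1438781_at, gave 903, 528 and 873 in knockdown-labelled cells, against 551, 505 and 807 in restored-labelled cells. It was higher in all 3 mice, by 0.70, 0.062 and 0.11, and the groups overlapped because the arrays of mouse 279 were the lowest in each population. The fitted value was 0.29 ± 0.17 (SE), 0.16 on the 5 remaining arrays and 0.086 without mouse 278. The 2 Tet2 probe sets therefore differed most in mouse 279, with 1.20 at one and 0.062 at the other. Tet3, read by 1439324_at alone, gave 623, 479 and 676 in knockdown-labelled cells, against 640, 605 and 699 in restored-labelled cells. It was the only member lower in all 3 mice, with differences of -0.039, -0.33 and -0.047, although the groups overlapped. The fitted value was -0.14 ± 0.10 (SE), or 0.909-fold (adjusted p = 0.817 in limma), and it was -0.043 without mouse 279.

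**Figure D3:**
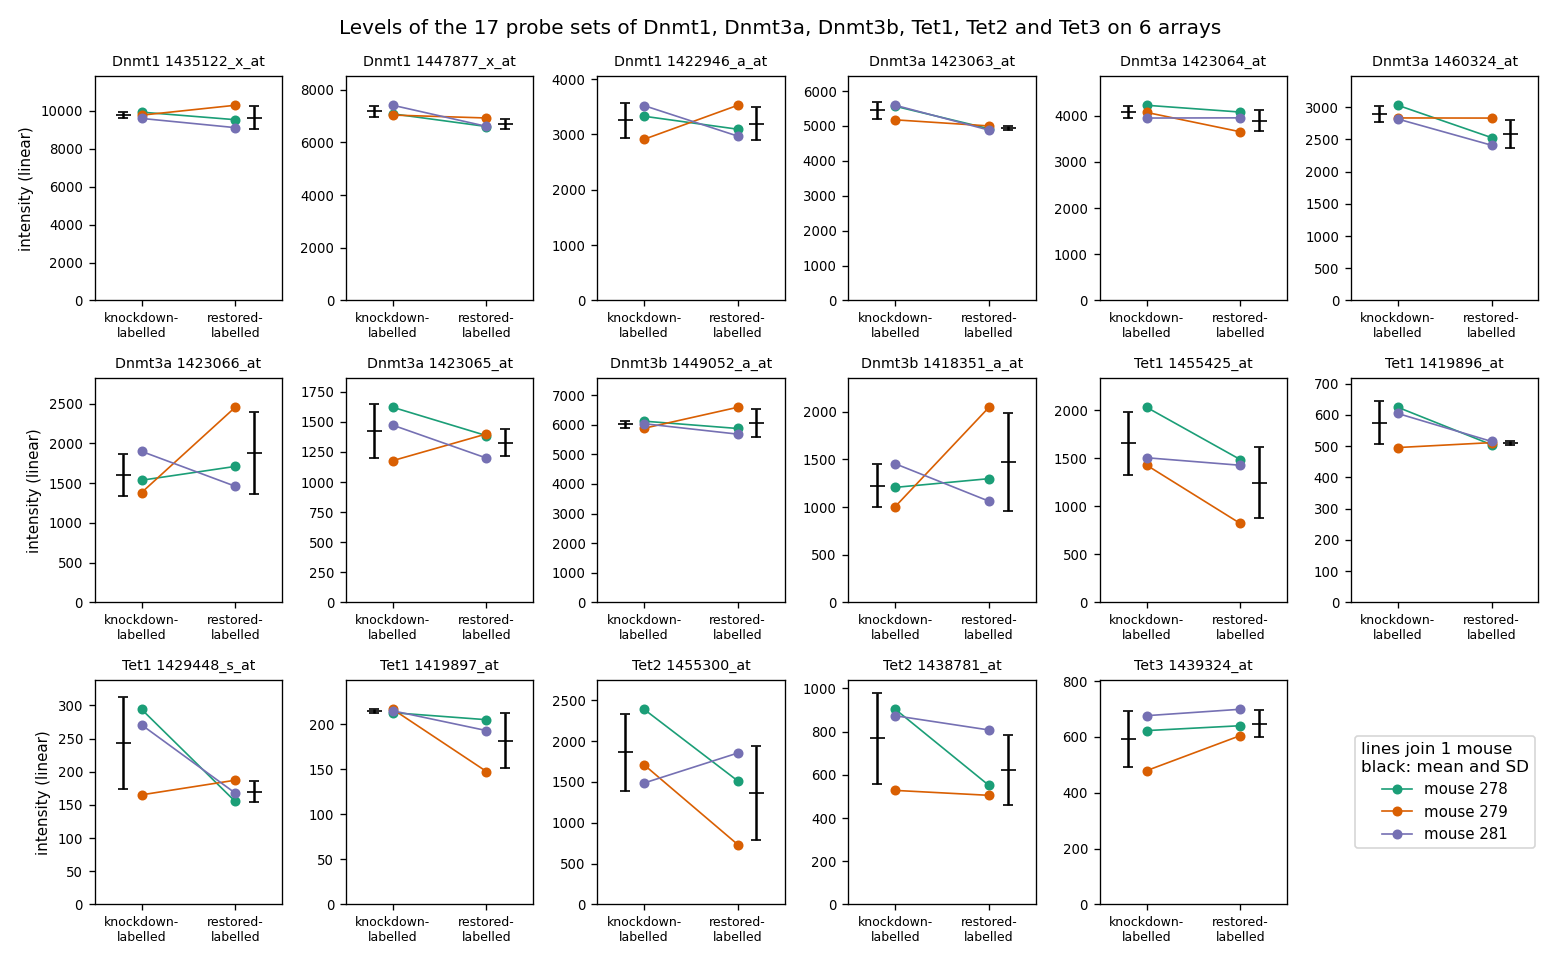
Linear intensity of the 17 member probe sets, knockdown-labelled arrays left and restored-labelled arrays right; each line joins the populations of 1 mouse, and black marks give the mean and SD of the 3 arrays. The lines of Tet1 1455425_at fall to the right in every mouse, and at Dnmt3b 1418351_a_at mouse 279 has 1006 in knockdown-labelled and 2047 in restored-labelled cells while mouse 281 slopes the other way.

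Dnmt3a, the de novo methyltransferase known for its part in stem cell differentiation, gave small differences at most of its probe sets. Its brightest probe set, 1423063_at, read 5565, 5176 and 5594 in knockdown-labelled cells of mice 278, 279 and 281, against 4922, 5001 and 4881 in restored-labelled cells. The groups did not overlap, and every mouse was higher, by 0.18, 0.049 and 0.20. The size was small: 0.14 ± 0.086 (SE), or 1.10-fold with an interval from 0.933-fold to 1.30-fold (adjusted p = 0.799 in limma). The probe set 1460324_at was also higher in every mouse, by 0.26, 0.00095 and 0.22, with a fitted 0.16 ± 0.098 (SE), and mouse 279 again had the smallest difference. Its fitted value on the 5 remaining arrays was 0.23 (unadjusted p = 0.0264, adjusted p = 0.960 in limma).

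The other 3 Dnmt3a probe sets did not share one direction. The probe set 1423064_at gave 0.069 ± 0.086 (SE), or 0.023 on the 5 remaining arrays, and 1423065_at gave 0.090 ± 0.14 (SE). At 1423066_at the difference was -0.20 ± 0.26 (SE), from 1536, 1381 and 1900 in knockdown-labelled cells against 1710, 2454 and 1461 in restored-labelled cells. Mouse 279 carried this value, with -0.82, while mouse 281 gave 0.38, and the difference was 0.11 without mouse 279 and 0.0097 on the 5 remaining arrays. Over the 6 arrays 1423066_at and 1423064_at correlated at -0.81 although they are assigned to the same gene. This correlation is a description, since the arrays share 3 mice, and the restored-labelled array of mouse 279 was the highest at 1423066_at and the lowest at 1423064_at.

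Dnmt3b, the other de novo methyltransferase, had 2 probe sets that were both highest on the restored-labelled array of mouse 279 but ordered the other arrays differently. The brighter one, 1449052_a_at, read 6121, 5881 and 6035 in knockdown-labelled cells, against 5874, 6590 and 5683 in restored-labelled cells. The group means, 6012 ± 122 and 6049 ± 478 (SD, n = 3 each), were nearly the same, and the fitted difference was -0.0060 ± 0.098 (SE) with an interval from 0.824-fold to 1.20-fold. The dimmer one, 1418351_a_at, read 1207, 1006 and 1454 in knockdown-labelled cells, against 1298, 2047 and 1062 in restored-labelled cells. Its differences were -0.10, -1.01 and 0.45 in the single mice and -0.22 ± 0.31 (SE) in the fit, with an interval from 0.468-fold to 1.57-fold. Mice 279 and 281 thus lay far apart in opposite directions at this probe set. On the 5 remaining arrays its difference was 0.041.

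Dnmt1, the maintenance methyltransferase, differed little. Its brightest probe set, 1435122_x_at, read 9934, 9774 and 9603 in knockdown-labelled cells, against 9535, 10296 and 9116 in restored-labelled cells. Mice 278 and 281 were slightly higher and mouse 279 slightly lower, for a fitted 0.020 ± 0.087 (SE), or 1.01-fold with an interval from 0.857-fold to 1.20-fold (adjusted p = 0.962 in limma). At 1447877_x_at the groups did not overlap, with 7082, 7035 and 7407 in knockdown-labelled cells against 6601, 6925 and 6606 in restored-labelled cells. That difference, 0.096 ± 0.085 (SE), was positive in all 3 mice but became -0.011 with each array centred on its median. The third probe set, 1422946_a_at, gave 0.025 ± 0.14 (SE), with -0.28 in mouse 279 and positive values in the others. The restored-labelled array of mouse 279 was the highest at 1435122_x_at and at 1422946_a_at. On the 5 remaining arrays their differences were 0.067 and 0.097.

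Single arrays stood out across the members. The restored-labelled array of mouse 279 was the highest of the 6 at 5 of the 10 writer probe sets and the lowest at 4 of the 7 eraser probe sets, against 32.5% and 25.7% of all probe sets, and it was the highest or lowest at 10 of 17 members, against 58.2% of all probe sets. The knockdown-labelled array of mouse 278 was the highest at 8 of 17 members, 5 of them erasers, against 20.6% of all probe sets. The median difference of the 7 eraser probe sets was 0.45, 0.062 and 0.11 in mice 278, 279 and 281, and that of the 10 writer probe sets 0.080, -0.12 and 0.21. The corresponding medians over all probe sets were 0.044, -0.039 and 0.052. The eraser median was thus positive in every mouse, but it takes in 4 probe sets of Tet1, which share a gene. Tet3 went the other way in every mouse, with -0.039, -0.33 and -0.047, and the median of mouse 279 is the value of Tet2 1438781_at.

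**Figure D4:**
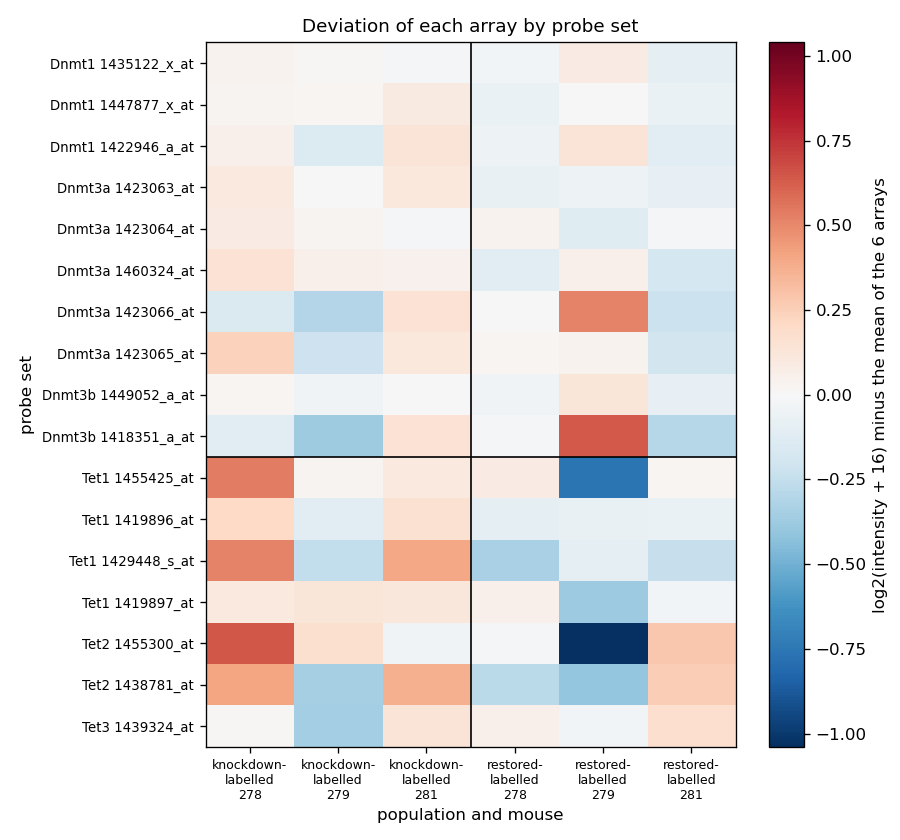
Deviation of each array from the mean of the 6 arrays, on the log2(intensity + 16) scale, for the 17 member probe sets (rows, writers above the line and erasers below it), with knockdown-labelled arrays left of the line and restored-labelled arrays right of it. The restored-labelled array of mouse 279 holds the deepest blue (Tet2 1455300_at and Tet1 1455425_at) and the deepest red (Dnmt3b 1418351_a_at and Dnmt3a 1423066_at) among the restored-labelled arrays.

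Over the 6 arrays, the brightest probe sets of Tet1 and Tet2 followed each other at a Pearson correlation of 0.96, and those of Dnmt1 and Dnmt3b at 0.92. Tet2 and Dnmt3b ran opposite at -0.72, and Tet3 correlated with Tet1 at 0.10 and with Tet2 at 0.045. These values describe 6 arrays of 3 mice, and the restored-labelled array of mouse 279 lies at an end of the range for Tet1, Tet2, Dnmt1 and Dnmt3b. Among 10823 other genes, the closest in pattern to Tet1 were Poglut3, Gtpbp10 and Fam199x (0.997, 0.995 and 0.995), and to Tet2 Samd8, Stxbp5 and Trio (0.997, 0.996 and 0.994). The closest to Tet3 were Clec4d, Myo9a and Fahd2a (0.984, 0.982 and 0.975). For Dnmt3a they were Kdm5c, Papola and Ak4 (0.997, 0.985 and 0.984), for Dnmt3b Znrd2, Ppdpf and Phf12 (0.996, 0.994 and 0.991), and for Dnmt1 Rfng, Cd2bp2 and Dnajc27 (0.991, 0.990 and 0.987). These are the highest of many correlations over 6 arrays, given with no test.

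The rest of the pathway was taken at 1 probe set a gene from a fit of 10824 genes. Of 45 listed partners, 38 had a probe set of their own and 34 were above the filter. None passed an adjusted p of 0.05 in limma, where 0% of all genes did. At an unadjusted p below 0.05 there was 1 higher and 0 lower, against 3.96% and 1.88% of all genes, 5.84% in all. Positive differences numbered 19 of 34, with a median of 0.014, where 50% of all genes were positive, with a median of -0.00015. The single gene was Zbtb33 in the list of readers, which encodes Kaiso, a zinc finger protein that binds methylated DNA. It read 3757, 3890 and 3776 in knockdown-labelled cells, against 3319, 2918 and 3332 in restored-labelled cells, without overlap, and differed by 0.26 ± 0.088 (SE; unadjusted p = 0.0443, adjusted p = 0.771 in limma). The other 7 readers tested did not pass in either direction, and without mouse 278 or without mouse 279 neither did Zbtb33.

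Among the 6 partners of maintenance methylation, 3 were positive and 3 negative. Uhrf1, which brings DNMT1 to hemimethylated sites, averaged 8055 ± 240 in knockdown-labelled and 7654 ± 141 in restored-labelled cells (SD, n = 3 each), a difference of 0.073 ± 0.074 (SE). The chromatin remodeler gene Hells had the smallest unadjusted p of this list, with 0.14 ± 0.087 (SE). Neither of these groups overlapped, nor did those of Pcna, the replication clamp, at -0.086 ± 0.078 (SE). In all 34 genes the groups were without overlap on the higher side at 4 and on the lower side at 1, against 10.1% and 5.08% of all genes.

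The 9 tested genes of base excision and repair, the route by which oxidized methylcytosine is replaced, had 3 positive and 6 negative differences and a median of -0.020. The lowest unadjusted p was 0.417, for Xrcc1, a repair scaffold, whose -0.27 ± 0.29 (SE) came from mouse 279 at -1.05, against 0.27 in mouse 281. Gadd45b, a stress-induced gene, ranged from -1.27 in mouse 281 to 1.30 in mouse 279. Of the 4 methyl donor genes 3 were positive, led by the methionine synthase reductase gene Mtrr at 0.11 ± 0.076 (SE). Of the 4 genes that make or clear alpha-ketoglutarate or its reduced form, the cofactor side of the TET reaction, 3 were positive. The lowest unadjusted p, 0.353, was that of Idh3a, at 0.10 ± 0.10 (SE), while Idh1 spanned 0.94 in mouse 279 and -0.43 in mouse 281. Ogt, a sugar transferase that binds TET proteins, differed by 0.19 ± 0.12 (SE), with 0.024, 0.44 and 0.088 in mice 278, 279 and 281. Its restored-labelled array of mouse 279 read 2097, below the other 5 arrays. On those 5 arrays 1 of the 34 pathway genes had an unadjusted p below 0.05 in limma, and the difference of Ogt there is not given here. Cxxc5 differed by 0.016. Trdmt1, a relative of the writers that methylates transfer RNA, differed by 0.0089.

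**Figure D5:**
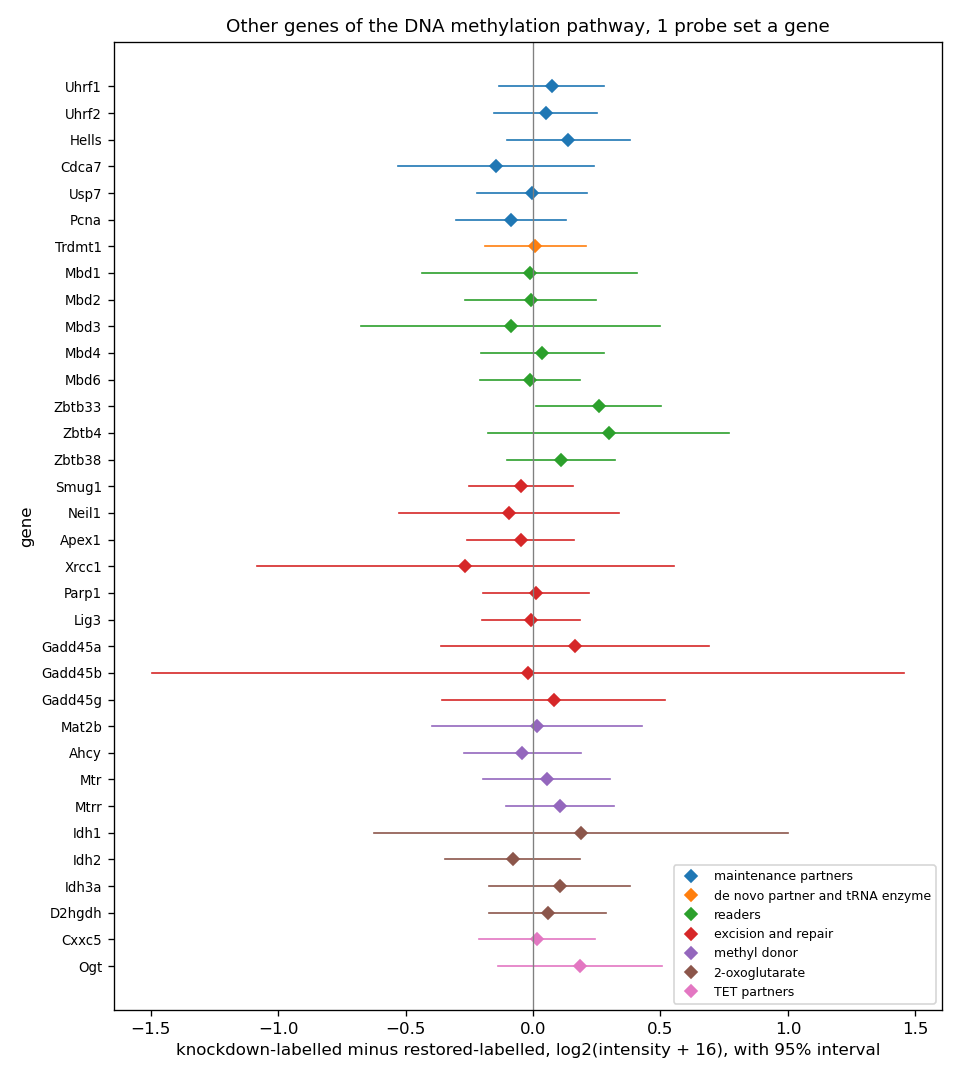
Differences of the 34 tested pathway genes, knockdown-labelled less restored-labelled, in log2(intensity + 16) with 95% intervals, coloured by list. The interval of Zbtb33 lies above 0, from 0.011 to 0.50, every other interval includes 0, and Gadd45b, Xrcc1 and Idh1 have the widest intervals.

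Other cell types were followed through marker lists, as summed intensities. The B and plasma cell list, with 8 of 10 markers measured and 5 above the filter, was higher in knockdown-labelled cells, between 12619 and 15848, than in restored-labelled cells, between 9784 and 10585. Its members did not move together. Jchain, Mzb1, Sdc1 and Cd79a, 4 of the 8, were higher without overlap, against 9.6% of all probe sets tested. Cd79a averaged 129 over the arrays, below the filter, so that share does not cover it. Cd79b was lower in all 3 mice, and Ebf1, Vpreb1 and Pax5 differed in sign between mice. Neutrophil markers, 7 of 8 measured, lay between 24077 and 48750 in knockdown-labelled and between 16555 and 43698 in restored-labelled cells, lowest on the restored-labelled array of mouse 279. Megakaryocyte markers, all 8 measured, lay between 9116 and 10252 in knockdown-labelled and between 9927 and 13251 in restored-labelled cells, a sum in which Pf4 weighs most. At 5 of these 8 (Itga2b, Gp1bb, Gp5, Treml1 and Vwf) the groups did not overlap and knockdown-labelled cells were lower, against 4.36% of all probe sets. Pf4 was lower in every mouse with overlap, and Gp9 and Ppbp differed in sign between mice. Ppbp was higher in mice 278 and 279, by 0.51 and 0.75, with -0.087 in mouse 281. The summed ranges overlapped for this and the neutrophil list, and for the erythroid list (7 of 8 measured; 2632 to 11110 in knockdown-labelled and 2886 to 9026 in restored-labelled cells), the macrophage list (6 of 6; 1859 to 3839 and 3250 to 4422) and the T cell list (5 of 6; 578 to 1076 and 441 to 874). In the macrophage list C1qa and C1qc, 2 of 6, were lower without overlap in knockdown-labelled cells and 0 were higher. Both were dim, averaging 54.5 and 112 over the arrays, below the filter, so the share of 4.36% does not cover them. No share was taken over probe sets below the filter. C1qb and Csf1r were lower in every mouse with overlap, and Adgre1 and Vcam1 differed in sign between mice. Within the B and plasma cell list the defining B cell gene Pax5 was between 0 and 32.5 on every array, and no marker of any list was at 0 on all arrays. The part of these cells in the member levels was not tested, and in a bulk sample fewer cells of a type and less RNA per cell cannot be told apart.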

How the data were processed

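RNA of 6 sorted samples was amplified and labelled with a NuGEN Ovation V2 kit and put on Affymetrix mouse genome arrays, per the labels' protocols. The deposited values are linear intensities, 1 per probe set and array. How the authors summarized, background-corrected and scaled these intensities is not stated in any source used. Of 45101 probe sets, 64 controls were dropped. An older probe table gives 34945 of the others 1 symbol and 932 several, and 9160 are unnamed here. Symbols were updated by gene ID (34741 matched).

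Intensities were taken to log2(value + 16), which understates changes of dim probe sets. Probe sets at or above the median mean, an intensity of 143, were kept (22519 probe sets, 10824 genes by the brightest probe set). Both levels were fitted in limma 3.58.1 (R 4.3.3) with a fixed term for the mouse, as the series' design text gives 1 mouse as the source of each pair, and p-values were adjusted by Benjamini-Hochberg at 0.05. Same-mouse deviations from the group means correlated at 0.44, -0.17 and -0.29 in mice 278, 279 and 281. Precision is limited by the number of arrays. The fit was also run on simulated data, and the outcome is not reported here. Promoter words were counted in the RefSeq promoter table. Alternatives covered normalization, filter, pseudocount, floor, prior, array weights, mouse term, probe set rule and each mouse left out.

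Named are every member probe set, of each pathway list the genes at unadjusted p below 0.05 and the gene with the smallest p, and the 3 genes closest in pattern to each member. Uhrf1, Pcna, Gadd45b, Idh1 and Cxxc5 were named after their values were seen. The members and lists were chosen with earlier results of these data known.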

Additional observations from a re-analysis of the deposited data

How the results depend on the processing

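Under 15 alternatives no member probe set passed an adjusted p of 0.05 in limma, and neither did any other probe set; the lowest adjusted p of a member was 0.069, for Tet1 1429448_s_at with array weights, whose estimation stopped before it converged. Without the mouse as a replicate block 0 members passed at either p, 13 of 17 differences were positive and 1291 probe sets had an unadjusted p below 0.05, against 1369 with the block. At an unadjusted p below 0.05 the members numbered 1 among the brightest 30% of probe sets, 2 with a trended and robust prior, 8 with array weights, 1 on the 5 arrays left once the restored-labelled one of mouse 279 is dropped, and 0 to 2 when a mouse was left out. All probe sets at that p numbered 833 of 13511 among the brightest 30%. Of 22519 they numbered 1357 with the trended prior, 6584 with array weights, 1081 on the 5 arrays and 573 to 1810 with a mouse left out. The pathway genes numbered 0 with quantile normalization, with each array centred on its median, with no filter and with probe sets averaged per gene. They numbered 1 on the 5 arrays and 0 to 1 when a mouse was left out. The brightest probe set of Dnmt1 turned to -0.087 with centring and lay between -0.0080 and 0.067 when a mouse was left out (-4.1e-05 without mouse 278). That of Dnmt3b turned to 0.051 with array weights and 0.057 on the 5 arrays, and lay between -0.052 and 0.073 when a mouse was left out. Left-out mice moved Tet1 between 0.26 and 0.62 and Tet2 between 0.17 and 0.93, lowest without mouse 279 in both; Dnmt3a, Tet1, Tet2 and Tet3 kept their direction at the brightest probe set in every alternative that held them; Tet3 was not among the brightest 30%. Of the probe sets with an unadjusted p below 0.05, 78.1% were higher, against 49.3% with quantile normalization and 34.9% with centring. The causes of these changes were not tested. With 3 mice the exact sign-flip test cannot go below p = 0.25.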

Other observations

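Genes of DNA replication, which maintenance methylation follows, were looked at beside the writers. Of 16 listed S phase genes 15 were tested, and 4 differences were positive and 11 negative, with a median of -0.070, against a median of -0.00015 over all genes. None passed an adjusted or an unadjusted p of 0.05 in limma, and the smallest p was that of Gins2, a part of the replicative helicase, at -0.16 ± 0.088 (SE). The median of the list was -0.044, -0.23 and 0.051 in mice 278, 279 and 281. In this list the median deviation from the mean of the 6 arrays was 0.20 on the restored-labelled array of mouse 279, and on the other arrays it lay between -0.087 and -0.0089. The writers stood at 0.068 on that array, within their range of -0.10 to 0.10 on the others, and the erasers at -0.38, below theirs of -0.12 to 0.41.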
